A study of Mus musculus with 80 samples.

Results

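The livers described here were taken from mice at circadian time (CT) 24, the start of the subjective day, after 14 h without food or with food always present. They make up 8 of the 80 libraries of a time course that compared the fasted with the fed liver every 4 h in constant darkness. Members were chosen by the titles of the libraries: 4 titled fasted CT24 and 4 titled control CT24, each group holding 2 males and 2 females. All 8 mice were C57BL/6J (genotype C57BL/6 in the labels), an inbred laboratory strain without any introduced allele, aged 8 to 12 weeks, housed in groups on standard chow under a cycle of 12 h light and 12 h dark, and moved to constant darkness on day 11. Food was taken from the fasted group at CT10, and water stayed available. The control group kept its food. About 40 mg was cut from the centre of the left lobe, so every value below is an average over all cells of that piece of liver, and fewer cells of a type cannot be told apart from less RNA per cell. The detailed labels gave another sex than the title in 4 of these 8 libraries and another treatment in 4, and the titles were used. The labels give each mouse as a separate sample but not how cages were shared. The p-values for gene levels below thus measure the spread between samples, and the exon test is described with its results.

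The liver is the organ that keeps blood glucose and fuel supply steady between meals. Mice eat mostly in the dark, so a fast that begins shortly before the subjective night takes away the main meal of the day. When insulin falls and glucagon, glucocorticoids and free fatty acids rise, hepatocytes shift from storing glucose as glycogen and fat to releasing glucose, burning fatty acids in mitochondria and peroxisomes, and exporting ketone bodies. PPARA, a nuclear receptor for fatty acids, CREB and the FOXO factors drive genes of the fasted state, while SREBP-1c, SREBP-2 and ChREBP (encoded by Mlxipl) drive the making of fatty acids and cholesterol in the fed state. The methyl cycle, in which MAT1A makes S-adenosylmethionine from methionine and AHCY removes the product of its use, runs in the same cells and takes its methionine from food and protein breakdown.

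The 8 libraries held 38066554 to 53478705 counts on genes. The sex in the title went with Xist, the RNA of the inactive X chromosome, at 0.0651 to 0.967 CPM (counts scaled to a library total of 1e6) in the males and 1030 to 1180 in the females, and with Ddx3y on the Y chromosome at 63.9 to 90.5 against 0.0184 to 0.254. The 2 main axes of variation each carried both treatment and sex. On the first (36.13% of the variance) every fasted liver (scores 4.88 to 85.65) stood above every control (-69.55 to -20.85), and the females above the males of their group. On the second (29.22%) the males (22.05 to 64.47) stood above the females (-66.98 to -9.76), and the fasted livers above the controls of their sex. Livers of the same treatment and sex correlated across genes at 0.9812 to 0.9886, above the 0.9601 to 0.9757 of livers that differed in treatment alone. Livers that differed in sex alone correlated at 0.9655 to 0.973, within that lower range. No library was a copy of another. The share of counts on Rn18s-rs5, which carries ribosomal RNA sequence and reports how well polyadenylated RNA was selected, was 0.66, 0.207, 0.126 and 0.125% in the controls and 0.0737 to 0.102% in the fasted livers, and its part in the results was not tested. Values for the 4 livers of a group are given throughout in the order male 1, male 2, female 1 and female 2, in CPM after scaling by the trimmed mean of M values (TMM). Fold changes are fasted against control on the log2 scale, and the adjusted p is that of edgeR's quasi-likelihood test with the Benjamini–Hochberg method over 21187 genes.

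At 14 h without food, 5099 of the 21187 genes tested (24.1%) differed between fasted and control livers at an adjusted p under 0.05. Of these 2583 were higher (12.2%) and 2516 lower (11.9%), and the median log2 change over all genes was -0.0131. The change was 2-fold or more in 883 of the raised and 811 of the lowered genes. In 2112 genes (9.97%) the lowest fasted liver stood above the highest control, and in 2018 genes (9.52%) the highest fasted liver stood below the lowest control. The effect in each sex was taken from the fit to all 80 libraries. Its test thus used the spread over both sexes and all times. For the males 2316 genes passed (10.9%) and for the females 3416 (16.1%). Of these, 1274 passed in both with the same sign and 4 with opposite signs. These shares are the background for every count of named genes that follows. Groups of genes with a known role departed from it in both directions. Genes of fatty acid oxidation, peroxisomes and the fasting response rose in most of their members, and genes of cholesterol and fatty acid synthesis fell in most of theirs. Genes of the cytosolic ribosome and of oxidative phosphorylation mostly did not pass. The lists were chosen with earlier results of these data known, so their counts describe the genes and do not test the lists.

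**Figure D1:**
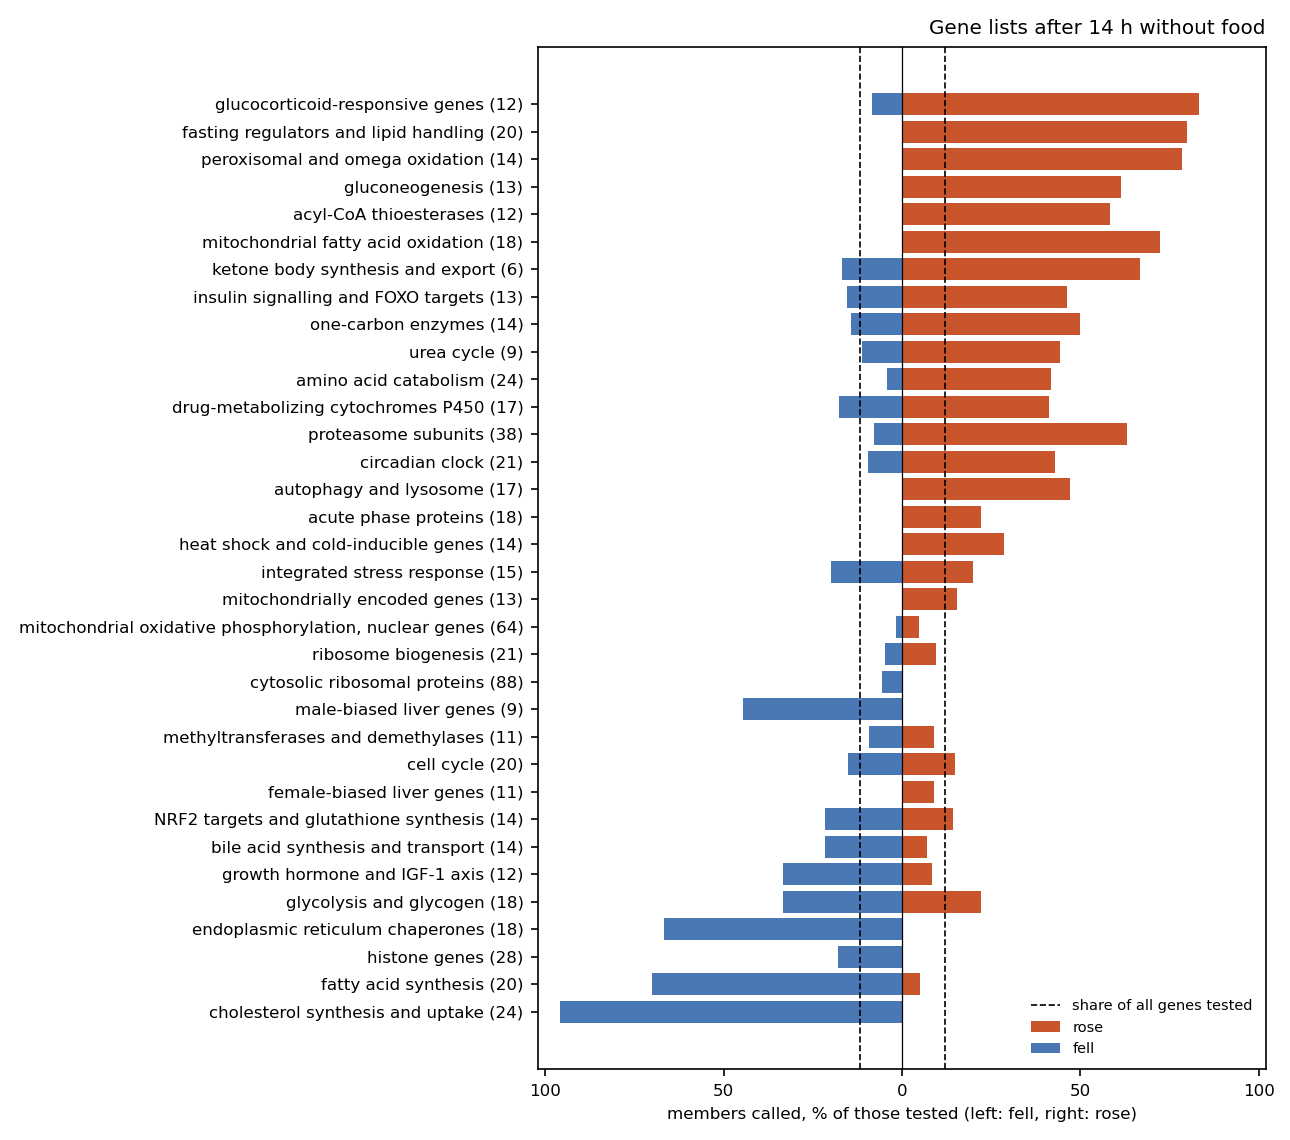
Share of the tested members of each gene list that rose (bars to the right, percent) or fell (bars to the left, percent) at CT24 in fasted against control livers at an adjusted p under 0.05, ordered by the median log2 change of the list. Dashed lines mark the shares over all genes tested, 12.2% risen and 11.9% fallen; 23 of 24 cholesterol genes fell and 13 of 18 genes of mitochondrial fatty acid oxidation rose.

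Genes that carry fatty acids into mitochondria and oxidise them rose together. Of 18 tested, 13 rose and 0 fell, with a median log2 change of 0.89, and in all 13 the fasted and control livers did not overlap. Cpt1a encodes the carnitine palmitoyltransferase that admits long-chain fatty acids to the mitochondrion and is the controlled step of their oxidation. It stood at 295, 335, 288 and 299 CPM in the control livers and 1316, 898, 1064 and 815 CPM in the fasted livers (log2 fold change 1.75, SE 0.16, adjusted p = 1.51e-11). The fasted livers lay far above the controls, which differed little among themselves. Acadm, the medium-chain acyl-CoA dehydrogenase, read 231, 246, 209 and 202 CPM in the control livers and 542, 501, 583 and 582 CPM in the fasted livers (log2 fold change 1.31, SE 0.14, adjusted p = 9.88e-10). Acadl, the long-chain dehydrogenase, rose by 0.94 and Hadhb, a subunit of the trifunctional protein, by 1.02 on the log2 scale. The 5 members that did not pass were Echs1, Acads, Acaa2, Etfa and Hadh, with changes between -0.23 and 0.21.

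Ketone body genes followed. Of the 6 genes of ketone body synthesis and export tested, 4 rose and 1 fell. Slc16a1, which moves ketone bodies and lactate across the plasma membrane, rose by 0.68. The member that fell was Slc16a6, a transporter needed for ketone body export in fish, at 22.5, 18.7, 19.9 and 17.5 CPM in the control livers and 7.86, 6.82, 16.1 and 8.32 CPM in the fasted livers (log2 fold change -1.05, SE 0.22, adjusted p = 0.000261). The levels of Slc16a6 in the fasted livers were all below those of the controls, so the export genes of this list moved in opposite directions.

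Peroxisomal and omega oxidation, which shorten very long fatty acids and hydroxylate their far end, held some of the steepest rises. There 11 of 14 genes rose and 0 fell, with a median of 1.53. Ehhadh, the peroxisomal bifunctional enzyme, read 258, 285, 404 and 275 CPM in the control livers and 2345, 2785, 4436 and 2228 CPM in the fasted livers (log2 fold change 3.27, SE 0.25, adjusted p = 6.41e-14). The omega-hydroxylase Cyp4a10 stood at 266, 309, 385 and 531 CPM in the control livers and 5379.7, 3181, 5257 and 4271 CPM in the fasted livers (log2 fold change 3.64, SE 0.36, adjusted p = 1.48e-10). Its neighbour Cyp4a14 read 87.5, 291, 434 and 615 CPM in the control livers and 7515, 6556, 10634 and 7541 CPM in the fasted livers (log2 fold change 4.67, SE 0.56, adjusted p = 1.61e-08). In each of these genes every fasted liver was several times the highest control. The controls of Cyp4a14 themselves ranged widely, lowest in male 1. Cyp4a10 and Cyp4a14 belong to a cluster of closely similar genes with Cyp4a31 and Cyp4a32, so reads may be split between them. Crat, which makes carnitine esters in peroxisomes and mitochondria, rose by 1.83, and Acaa1a, a peroxisomal thiolase, by 1.11. Of 12 acyl-CoA thioesterases, enzymes that free fatty acids from coenzyme A, 7 rose and 0 fell (median 0.93). Of the 5 that did not pass, 2 stood lower in every fasted liver than in any control, and the lowest change was -1.12. Over all genes 9.52% stood lower in this way. Acot2, the mitochondrial form, stood at 2.46, 3.61, 6.76 and 6.44 CPM in the control livers and 28.1, 53.6, 82.8 and 37.4 CPM in the fasted livers (log2 fold change 3.47, SE 0.40, adjusted p = 4.53e-09). Acot1, its cytosolic twin, read 18.0, 24.3, 28.7 and 41.6 CPM in the control livers and 121, 255, 447 and 219 CPM in the fasted livers (log2 fold change 3.20, SE 0.45, adjusted p = 4.18e-07), and as these 2 genes are near copies their counts are uncertain. Acot12 rose by 1.21 and Acot8 by 1.09.

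**Figure D2:**
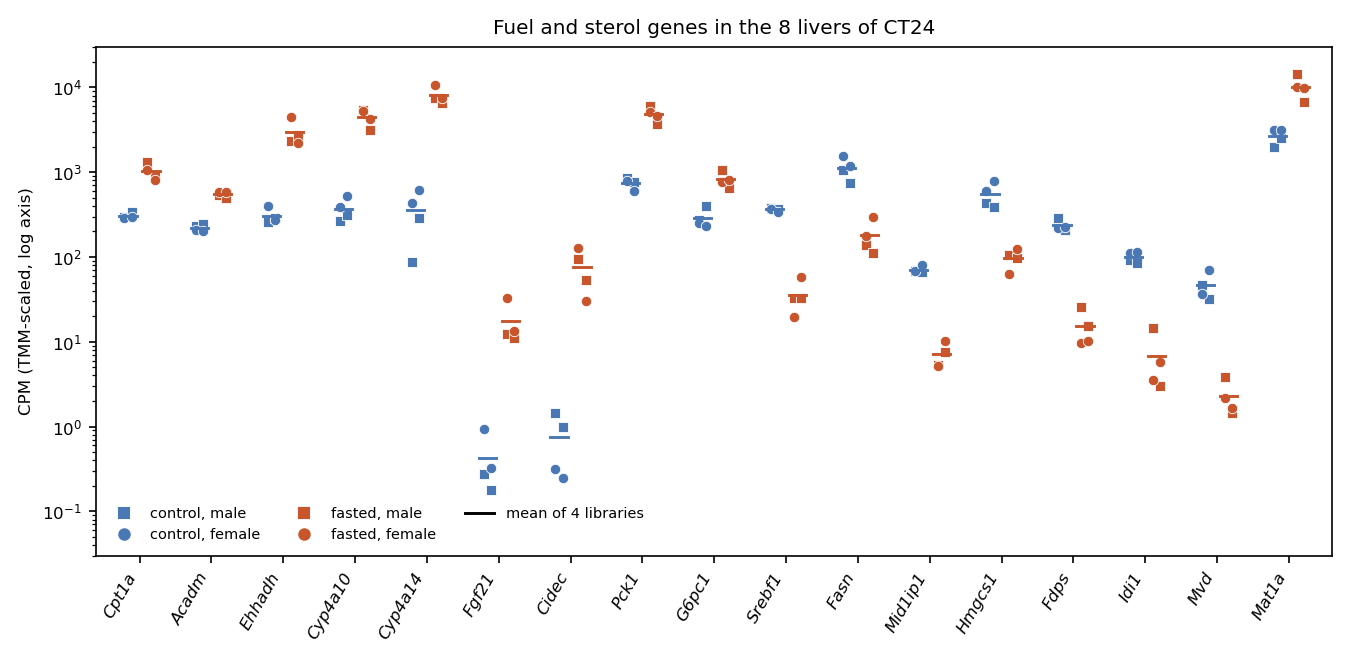
CPM of genes of fuel metabolism on a log axis in each of the 4 control and 4 fasted livers at CT24 (squares male, circles female, lines the mean of 4). Cpt1a, Ehhadh, Cidec, Pck1 and Mat1a stood higher in every fasted liver than in any control, and Srebf1, Fasn, Fdps, Idi1 and Mvd lower.

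Among 20 regulators of the fasted state and proteins of lipid droplets, 16 rose and 0 fell (median 1.95). The hormone gene Fgf21, which the fasted liver secretes, was close to silent in the controls at 0.273, 0.178, 0.942 and 0.324 CPM and read 12.5, 11.1, 33.1 and 13.2 CPM in the fasted livers (log2 fold change 5.44, SE 0.79, adjusted p = 7.27e-07). Female 1 stood apart from the other fasted livers. Cidec, a protein that fuses lipid droplets, went from 1.46, 0.992, 0.314 and 0.248 to 94.5, 53.8, 129 and 30.3 CPM (log2 fold change 7.02, SE 0.49, adjusted p = 8.00e-15, and 6.33 without fasted female 1). Every fasted liver was far above every control. Pnpla2, the lipase that opens stored triglyceride, rose by 2.04, and Plin5, which tethers droplets to mitochondria, by 1.72, in both cases without overlap. The coactivator Ppargc1a, which raises gluconeogenic and mitochondrial genes, stood at 4.34, 5.01, 10.3 and 7.66 CPM in the control livers and 42.7, 8.82, 77.1 and 32.1 CPM in the fasted livers (log2 fold change 2.53, SE 0.36, adjusted p = 4.75e-07). Its level in fasted male 2 was below that of control female 1, and without fasted male 1 the change was 1.76. Angptl4, an inhibitor of lipoprotein lipase, read 32.2, 31.0, 22.6 and 25.9 CPM in the control livers and 295, 166, 308 and 199 CPM in the fasted livers (log2 fold change 3.13, SE 0.47, adjusted p = 1.26e-06). Pdk4, the kinase that switches off pyruvate dehydrogenase, stood at 24.6, 17.6, 23.6 and 25.4 CPM in the control livers and 49.4, 29.1, 292 and 52.7 CPM in the fasted livers (log2 fold change 1.86, SE 0.49, adjusted p = 0.004). Only fasted female 1 was far above the controls, and without it the change was 1.01 and did not pass (adjusted p = 0.178). The receptor Ppara itself rose by 0.74 (adjusted p = 0.0122).

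Glucose output and glucose use moved apart. Of 13 genes of gluconeogenesis 8 rose and 0 fell (median 0.98). Pck1, the cytosolic phosphoenolpyruvate carboxykinase, stood at 861, 759.5, 796 and 595 CPM in the control livers and 6050.1, 3729, 5073 and 4658 CPM in the fasted livers (log2 fold change 2.70, SE 0.26, adjusted p = 7.77e-11), without overlap. G6pc1, the phosphatase that releases free glucose, read 274, 402, 254 and 230.2 CPM in the control livers and 1048, 649.8, 767 and 819 CPM in the fasted livers (log2 fold change 1.52, SE 0.29, adjusted p = 8.50e-05), again without overlap. Gpt2, which turns alanine into pyruvate, rose by 1.19, Pcx, which carboxylates pyruvate, by 0.90, and Gk, which brings in glycerol, by 1.09. Of 18 genes of glycolysis and glycogen 4 rose and 6 fell (median -0.41). Ppp1r3b, which targets a phosphatase to glycogen, fell from 472, 446, 473 and 486 to 104, 70.6, 157 and 175 CPM (log2 fold change -1.96, SE 0.29, adjusted p = 1.33e-06). Its relative Ppp1r3g went the other way, from 0.174, 0.0763, 0.129 and 0.0191 to 9.15, 0.651, 96.1 and 2.57 CPM (log2 fold change 7.27, SE 1.23, adjusted p = 1.17e-05). The fasted livers of Ppp1r3g spread widely, with female 1 highest and male 2 lowest, and the change was 5.15 without fasted female 1, 5.82 without fasted male 1 and 8.18 without control female 1.

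Fatty acid synthesis fell in 14 of 20 genes and rose in 1 (median -1.39). Srebf1, which encodes the SREBP-1 factors, fell from 379.7, 365, 371 and 338 to 32.5, 33.3, 19.6 and 57.8 CPM (log2 fold change -3.35, SE 0.29, adjusted p = 5.21e-12). Mid1ip1, which activates acetyl-CoA carboxylase, fell from 68.0, 67.1, 67.9 and 79.7 to 5.28, 7.56, 5.19 and 10.3 CPM (log2 fold change -3.32, SE 0.24, adjusted p = 3.42e-14). Fasn, the fatty acid synthase, stood at 1049, 754, 1546 and 1193 CPM in the control livers and 140.2, 110.0, 178 and 297 CPM in the fasted livers (log2 fold change -2.69, SE 0.38, adjusted p = 4.75e-07). In all 3 genes every fasted liver was below every control. The citrate exporter Slc25a1 fell by 0.86 on the log2 scale. Acly, which splits the citrate, fell from 349.9, 355, 613 and 341 to 85.5, 92.6, 72.1 and 99.9 CPM (log2 fold change -2.23, SE 0.33, adjusted p = 1.35e-06), with control female 1 far above the other controls. Pnpla3, a lipid droplet protein, read 0.546, 0.407, 16.1 and 5.58 CPM in the control livers and 0.152, 0.0217, 0.449 and 0.220 CPM in the fasted livers (log2 fold change -3.75, SE 0.75, adjusted p = 0.000153, and -4.65 without fasted male 1). Scd1, the desaturase that makes oleate, stood at 5363, 5563, 15136 and 4265 CPM in the control livers and 2814, 5913, 1743 and 1004 CPM in the fasted livers (log2 fold change -1.57, SE 0.50, adjusted p = 0.0176). Fasted male 2 was above 3 of the controls and control female 1 above all others, and Scd1 did not pass without control female 1, fasted male 1 or fasted female 2 (log2 change -1.89 to -0.97 over the 8 omissions, adjusted p = 0.22 at the highest), the change being -0.97 without control female 1. The 1 gene of this list that rose was Elovl5, which lengthens polyunsaturated fatty acids (0.77). It was named after its value was seen and did not pass without control female 2 or fasted female 1.

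Cholesterol synthesis and uptake changed as a block. Of 24 genes tested 23 fell and 0 rose, with a median of -2.37, and all 23 fell without overlap between the groups. Fdps, the farnesyl diphosphate synthase, fell from 288, 210.0, 223 and 229 to 25.9, 15.4, 9.58 and 10.3 CPM (log2 fold change -4.05, SE 0.27, adjusted p = 5.41e-15). Mvd, the mevalonate diphosphate decarboxylase, fell from 46.7, 32, 36.7 and 70.3 to 3.84, 1.43, 2.15 and 1.67 CPM (log2 fold change -4.36, SE 0.37, adjusted p = 2.57e-12). The fasted levels of Fdps, Mvd and Idi1 were highest in male 1 each time. Idi1, the isopentenyl diphosphate isomerase, read 91.6, 85.2, 113 and 114 CPM in the control livers and 14.7, 3.04, 3.57 and 5.79 CPM in the fasted livers (log2 fold change -3.96, SE 0.32, adjusted p = 6.79e-13, and -4.73 without fasted male 1). Among enzymes of the later steps Nsdhl fell by 2.99 and Cyp51 fell by 2.85, and Sqle, the squalene epoxidase, fell by 3.83, or -4.73 as a log2 change without fasted male 1. The member that did not pass was Hsd17b7, a reductase of the late pathway, at -0.10 (adjusted p = 0.673).

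The stretch before the start of these genes can be read beside their fall. RefSeq windows of 250 bases before the start (GRCm38.p6) were found for 16 of the 24 genes, and 16 of 16 held the letters CCAAT on either strand. The share was 37.5% of all 27025 genes with a window and 39.9% of those tested here. A gene with several windows counted once, as holding the letters if any of its windows did, and shares of windows below are counted so. Of such windows the one with the most matches is shown. CCAAT is the box bound by NF-Y, a factor that works beside SREBP. Among the endoplasmic reticulum chaperones described further on 14 of 16 windows held it, and among the genes of fatty acid synthesis 12 of 18. Lists that did not fall as a whole also held it often, with 9 of 10 windows of one-carbon enzymes and 14 of 16 of cell cycle genes. The core of a sterol regulatory element, CACNCCAC, stood in 2 of the 16, against 6.05% of all windows. The direct repeat of AGGNCA with any 1 base between its copies, a form that PPARA binds with RXR, stood in 0.4% of all windows and in 0 of 16 windows of mitochondrial fatty acid oxidation, 0 of 7 of peroxisomal oxidation and 2 of 18 of the fasting regulators. A match describes the letters and not a bound site. Windows of Hmgcs1, the synthase at the entry of the pathway, on the plus strand at chr13:119690101-119690350, and of Idi1, on the plus strand at chr13:8885356-8885605, are shown 5′ to 3′ because they hold several of these boxes, with the letters of CCAAT or CACNCCAC on either strand in capitals.
Hmgcs1: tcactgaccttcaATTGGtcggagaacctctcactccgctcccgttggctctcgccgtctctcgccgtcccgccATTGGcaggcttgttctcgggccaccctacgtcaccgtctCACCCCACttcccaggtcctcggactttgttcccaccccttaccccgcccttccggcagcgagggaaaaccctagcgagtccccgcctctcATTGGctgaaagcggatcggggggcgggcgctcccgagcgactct
Idi1: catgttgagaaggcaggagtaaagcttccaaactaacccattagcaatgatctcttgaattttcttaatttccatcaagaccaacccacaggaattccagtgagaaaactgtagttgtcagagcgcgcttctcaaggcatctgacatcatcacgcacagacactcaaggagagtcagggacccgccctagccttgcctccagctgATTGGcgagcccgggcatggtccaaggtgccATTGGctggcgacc
Hmgcs1 holds CCAAT 3 times and the sterol core 1 time, and Idi1 holds CCAAT 2 times. Hmgcs1 fell from 435, 385, 604 and 798 to 105, 98.0, 63.7 and 124 CPM (log2 fold change -2.46, SE 0.28, adjusted p = 5.22e-09), with every fasted liver below every control.

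Of 14 genes of bile acid synthesis and transport 1 rose and 3 fell. Abcb11, the pump that exports bile salts, fell by 1.03 (adjusted p = 4.09e-06). Cyp8b1, which makes cholic acid, rose by 1.22 (adjusted p = 6.20e-05), also without overlap. Akr1d1, a reductase of the sterol ring, changed by -0.79 and did not pass without fasted male 1 or fasted female 1 (log2 change -1.19 to -0.53 over the 8 omissions, adjusted p = 0.154 at the highest). Cyp7b1, which hydroxylates oxysterols and is male-biased, changed by -0.81 and lost its call without control male 1, control female 2, fasted male 2 or fasted female 2 (log2 change -0.99 to -0.58 over the 8 omissions, adjusted p = 0.159 at the highest). Cyp7a1, the rate-limiting enzyme of bile acid synthesis, stood at 235, 185, 319 and 337 CPM in the control livers and 179.7, 134, 7.14 and 110.3 CPM in the fasted livers (adjusted p = 0.0746). Its level in fasted female 1 was far below that of every other liver.

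Genes of insulin signalling and FOXO targets rose in 6 and fell in 2 of 13. Irs2, the insulin receptor substrate of the liver, stood at 27.1, 29.6, 47.5 and 43.7 CPM in the control livers and 126, 103, 194 and 144 CPM in the fasted livers (log2 fold change 1.95, SE 0.27, adjusted p = 3.52e-07). The receptor Insr rose by 0.53 and Foxo1 by 0.86. The steepest member was Igfbp1, a secreted binding protein of insulin-like growth factors, at 5.38, 7.73, 40.2 and 28.2 CPM in the control livers and 1329, 130.0, 2165 and 392 CPM in the fasted livers (log2 fold change 6.01, SE 0.98, adjusted p = 6.40e-06). The fasted livers differed widely here, lowest in male 2 and highest in female 1, and the change was 4.76 without fasted male 1 and 5.16 without fasted female 1. The Igfbp1 window (chr11:7197537-7197786, plus strand) is shown because it holds the core of an insulin response element, CAAAACA, in capitals. This core is a site that FOXO factors can bind, and 6.38% of all windows hold it on either strand, as do 3 of 11 of this list.
Igfbp1: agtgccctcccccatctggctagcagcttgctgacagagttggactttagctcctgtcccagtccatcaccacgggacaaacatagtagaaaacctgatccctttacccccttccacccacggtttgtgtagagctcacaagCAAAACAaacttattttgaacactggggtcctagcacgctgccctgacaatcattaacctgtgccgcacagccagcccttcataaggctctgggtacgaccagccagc
Of 12 genes of the growth hormone and IGF-1 axis 1 rose and 4 fell. Igfals, which stabilises circulating IGF-1, fell by 1.35, the growth hormone receptor Ghr fell by 0.97 and the signal transducer Stat5a fell by 0.88, while the binding protein Igfbp2 rose by 1.02. Igf1 itself stood at 649.7, 735, 853 and 773 CPM in the control livers and 742, 659, 530.4 and 319 CPM in the fasted livers (log2 fold change -0.46, SE 0.18, adjusted p = 0.0491). It fell in the females (-0.94, adjusted p = 0.00615) and read 0.02 in the males, a difference between the sexes that did not pass its own test (adjusted p = 0.304), and the call was lost without control male 1 or 2, control female 1 or 2, fasted male 1 or 2 or fasted female 2 (log2 change -0.66 to -0.30 over the 8 omissions, adjusted p = 0.298 at the highest).

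Enzymes that burn amino acids rose in 10 of 24 cases and fell in 1 (median 0.30), and 6 rose without fasted male 1. Tdo2, the first enzyme of tryptophan breakdown, rose by 1.26, Aass, that of lysine, by 1.46 and Hpd, of the tyrosine pathway, by 0.61, while Haao, further down the tryptophan pathway, fell by 0.82. Tat, the tyrosine aminotransferase, stood at 1658, 1617, 1054 and 1198 CPM in the control livers and 4622, 1299, 5705 and 2758 CPM in the fasted livers (log2 fold change 1.38, SE 0.34, adjusted p = 0.00206). Its level in fasted male 2 was within the controls, and without fasted male 1 the change was 0.78 and did not pass (adjusted p = 0.119). Sds, the serine dehydratase, showed the same order of livers at 117, 137, 121 and 112 CPM in the control livers and 307, 117, 327 and 248 CPM in the fasted livers (log2 fold change 1.02, SE 0.35, adjusted p = 0.0267), and lost its call without control male 1 or 2, control female 1 or 2, fasted male 1 or fasted female 1 (log2 change 0.59 to 1.29 over the 8 omissions, adjusted p = 0.31 at the highest). In the urea cycle, which disposes of the nitrogen, 4 of 9 genes rose and 1 fell, and 2 rose without control male 1, control female 1 or fasted male 1. Asl, the argininosuccinate lyase, stood at 473, 516, 415 and 503 CPM in the control livers and 1731, 868, 1341 and 1353 CPM in the fasted livers (log2 fold change 1.47, SE 0.19, adjusted p = 5.23e-08). Arg1, the arginase, rose by 0.98, and Nags, which makes the activator of the cycle, fell by 0.56. Cps1, which fixes ammonia, changed by 0.55 and lost its call without control male 1 or 2, control female 1 or 2, fasted male 1 or fasted female 1 (log2 change 0.32 to 0.72 over the 8 omissions, adjusted p = 0.313 at the highest).

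The methyl cycle was led by Mat1a, the liver enzyme that makes S-adenosylmethionine. It stood at 1971, 2528, 3143 and 3115 CPM in the control livers and 14274, 6768, 10082 and 9804 CPM in the fasted livers (log2 fold change 1.95, SE 0.17, adjusted p = 8.30e-12). Every fasted liver was above 2 times the highest control, with fasted male 1 the highest and fasted male 2 the lowest. Ahcy, which hydrolyses S-adenosylhomocysteine, read 1069.7, 1168, 887 and 1069 CPM in the control livers and 1937, 1553, 1835 and 2134 CPM in the fasted livers (log2 fold change 0.83, SE 0.11, adjusted p = 4.80e-08), without overlap. Of 14 one-carbon enzymes in all 7 rose and 2 fell (median 0.38). Mat2b, a subunit of the second synthetase, rose by 0.44 and Nnmt, which methylates nicotinamide, by 1.44. Pemt, which methylates phosphatidylethanolamine and is a large user of methyl groups, fell by 0.56. Bhmt, which remethylates homocysteine from betaine, stood at 6144, 4521, 3541 and 2908 CPM in the control livers and 14691, 7083, 2860.5 and 7672 CPM in the fasted livers (log2 fold change 0.87, SE 0.32, adjusted p = 0.041). Fasted female 1 lay below all 4 controls and the other fasted livers above all 4, and the call of Bhmt was lost without control male 1 or 2, control female 1 or 2, fasted male 1 or fasted female 2 (log2 change 0.43 to 1.15 over the 8 omissions, adjusted p = 0.421 at the highest). Of 11 RNA and histone methyltransferases and demethylases 1 rose, the cap methyltransferase Rnmt by 0.50, and 1 fell, Mettl16 (-0.31), which did not pass without control male 1 (-0.20, adjusted p = 0.123). Among the others Mettl14 changed by -0.23 and Wtap by 0.13, and neither passed.

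Clock genes were altered in part. Of 21 tested 9 rose and 2 fell (median 0.22). Nr1d2, encoding the repressor REV-ERBβ, stood at 8.88, 12.5, 7.28 and 7.53 CPM in the control livers and 37.7, 30.9, 23.0 and 21.6 CPM in the fasted livers (log2 fold change 1.64, SE 0.16, adjusted p = 7.46e-11), without overlap. Its paralogue Nr1d1 read 6.77, 8.19, 3.29 and 5.41 CPM in the control livers and 31.4, 26.2, 7.10 and 14.8 CPM in the fasted livers (log2 fold change 1.64, SE 0.32, adjusted p = 0.000118), with the fasted males above the fasted females. Per1, a period gene that also responds to glucocorticoids and CREB, stood at 11.8, 9.31, 8.75 and 5.39 CPM in the control livers and 60.8, 6.78, 76.9 and 42.5 CPM in the fasted livers (log2 fold change 2.38, SE 0.36, adjusted p = 1.46e-06). Fasted male 2 lay within the controls for Per1 and the other fasted livers far above, and the change was 1.21 without fasted male 1. Ciart, a repressor of the clock, read 0.298, 0.280, 0.185 and 0.438 CPM in the control livers and 2.88, 0.586, 2.46 and 1.60 CPM in the fasted livers (log2 fold change 2.62, SE 0.51, adjusted p = 0.000104, and 1.85 without fasted male 1). Dbp, an output gene of the clock, stood at 1.12, 0.916, 1.15 and 0.838 CPM in the control livers and 3.57, 2.28, 1.87 and 1.98 CPM in the fasted livers (log2 fold change 1.24, SE 0.46, adjusted p = 0.0464) and lost its call without control male 1 or 2, control female 1 or 2, fasted male 1 or fasted female 1 or 2 (log2 change 1.06 to 1.38 over the 8 omissions, adjusted p = 0.165 at the highest). Bmal1, the activator of the loop, stood at 29.6, 32.4, 37.0 and 38.2 CPM in the control livers and 28, 31.3, 38.4 and 35.1 CPM in the fasted livers (log2 fold change -0.05, adjusted p = 0.937). The fasted and control livers of Bmal1 covered the same range. The Ciart window (chr3:95882229-95882478, minus strand) is shown because it holds 3 copies of the E-box CACGTG, the site of BMAL1 and CLOCK, in capitals. Such a box stood in 6.86% of all windows and in 5 of the 16 windows of the clock list.
Ciart: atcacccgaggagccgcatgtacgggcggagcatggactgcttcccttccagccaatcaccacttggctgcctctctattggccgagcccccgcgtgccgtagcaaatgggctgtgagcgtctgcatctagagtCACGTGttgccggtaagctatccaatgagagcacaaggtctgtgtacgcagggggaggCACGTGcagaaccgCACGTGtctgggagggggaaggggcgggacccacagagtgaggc

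Genes known to respond to glucocorticoids separated 1 fasted liver from the other 3. Of 12 tested 10 rose and 1 fell (median 2.38), but only 3 rose without overlap. Fkbp5, a chaperone of the glucocorticoid receptor, stood at 14.3, 19.3, 53.7 and 62.0 CPM in the control livers and 145, 96.5, 337 and 162 CPM in the fasted livers (log2 fold change 2.48, SE 0.33, adjusted p = 1.23e-07). Every fasted liver was above every control. The metallothionein Mt2, which binds zinc, read 0.843, 1.12, 10.2 and 21.2 CPM in the control livers and 130.4, 7.27, 319 and 149 CPM in the fasted livers (log2 fold change 5.01, SE 0.93, adjusted p = 5.45e-05, and 3.39 without fasted male 1), and Mt1, its near copy, 2.68, 2.49, 25.7 and 42.9 CPM in the control livers and 200.4, 27.3, 447 and 289 CPM in the fasted livers (log2 fold change 4.44, SE 0.80, adjusted p = 3.19e-05, and 3.41 without fasted male 1). Fasted male 2 was inside the control range for both, but the top of that range was set by the control females. It stood above both control males for Mt2 and for Mt1. Zbtb16, a transcription factor, stood at 14.2, 9.06, 13 and 10.9 CPM in the control livers and 84.5, 11.0, 91.7 and 79.2 CPM in the fasted livers (log2 fold change 2.44, SE 0.47, adjusted p = 8.99e-05). Cdkn1a, the cell cycle inhibitor p21, stood at 20.8, 12.7, 25.7 and 12.6 CPM in the control livers and 90.4, 19.8, 208 and 84.4 CPM in the fasted livers (log2 fold change 2.32, SE 0.49, adjusted p = 0.000283, and 1.58 without fasted male 1). Fasted male 2 was again among the controls for both. Errfi1, an inhibitor of the EGF receptor, read 713, 1065, 661 and 478 CPM in the control livers and 1846, 402, 1690.2 and 1149.9 CPM in the fasted livers (log2 fold change 0.83, SE 0.28, adjusted p = 0.0247), with fasted male 2 the lowest of all 8 livers. Nr3c1, the receptor itself, fell by 0.44 (adjusted p = 6.34e-05).

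Counted over the list, 7 of the 10 raised genes (70%) did not exceed the highest control of either sex in fasted male 2. This held for 0 of the 10 in fasted male 1, female 1 or female 2. Over all 2583 raised genes the share was 15.7% in fasted male 2, 9.25% in male 1, 9.02% in female 1 and 10.7% in female 2. Over the 2516 lowered genes, the share not below the lowest control was 20.2% in fasted male 2 and 15.7% in male 1. The raised genes of mitochondrial and peroxisomal oxidation and the lowered cholesterol genes did not overlap between the groups, so fasted male 2 passed the controls for all of them. It was the lowest fasted liver for Pck1, G6pc1, Mat1a, Cyp4a10 and Cyp4a14, genes picked after their values were seen. For Cpt1a, Ehhadh and Cidec female 2 was the lowest, and for Acot1 and Acot2 male 1. In gluconeogenesis 2 of 8 raised genes failed in male 2 and 0 in the other fasted livers, in amino acid breakdown 3 of 10 failed in male 2 and 1 in female 1, and among the fasting regulators 3 of 16 failed in male 2, 1 in male 1 and 0 in the females. 1 of those 3 was Lpin1, a phosphatidate phosphatase, at 26.6, 17.2, 34.3 and 30.3 CPM in the control livers and 366, 22.9, 1407 and 343 CPM in the fasted livers. The glucocorticoid list rose in 7 to 10 members with any 1 of the 8 libraries left out. A cause of the position of fasted male 2 was not tested.

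**Figure D3:**
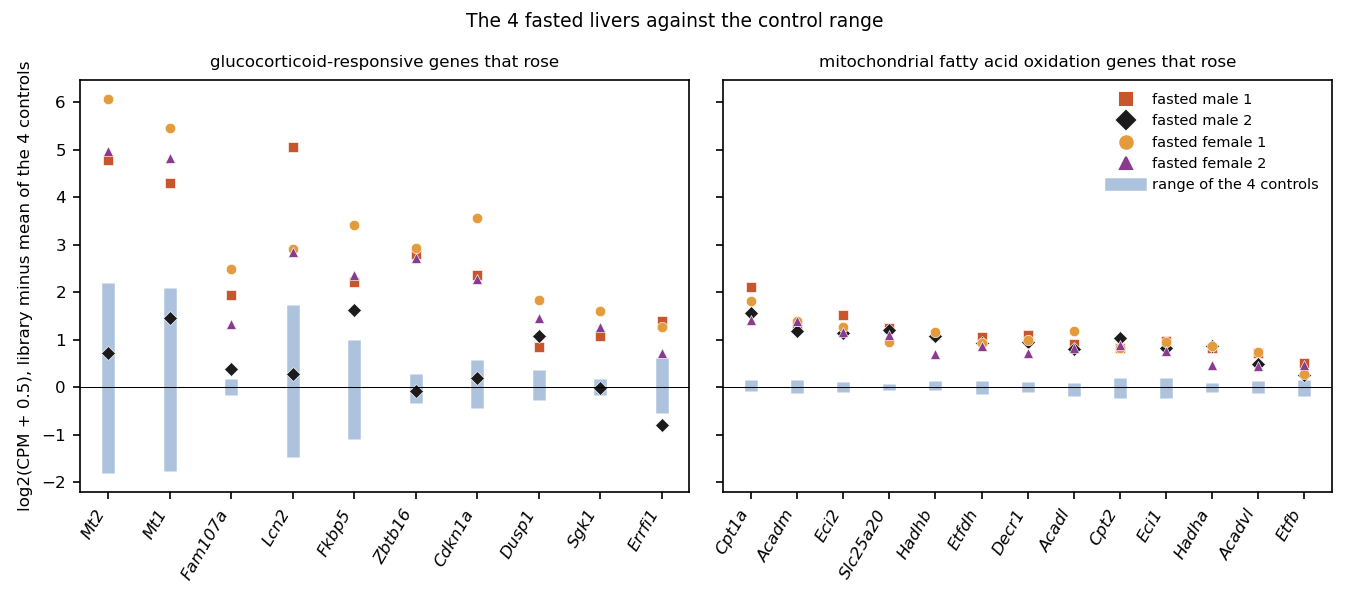
Log2 of CPM + 0.5 in each fasted liver minus the mean of the 4 controls, for the 10 raised glucocorticoid-responsive genes (left) and the 13 raised genes of mitochondrial fatty acid oxidation (right), with the control range as a band. Fasted male 2 does not rise above the band for 7 of the 10 genes on the left and rises above it for all 13 on the right.

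Protein handling changed in several compartments. Of 18 chaperones of the endoplasmic reticulum 12 fell and 0 rose (median -0.61). Pdia6, a disulfide isomerase, stood at 326, 279.9, 173 and 256 CPM in the control livers and 183, 173, 78.5 and 88.2 CPM in the fasted livers (log2 fold change -1.06, SE 0.16, adjusted p = 1.40e-06). Within each sex the fasted livers were lower, but control female 1 was level with the fasted males, and 9 of the 12 lowered genes in fasted male 1 and 7 in fasted male 2 did not lie below the lowest control. Canx, calnexin, fell by 0.51, Calr, calreticulin, fell by 0.74 and Sdf2l1 fell by 1.81. Hspa5, the chaperone BiP, changed by -0.65 and lost its call without control male 1 or 2, control female 2, fasted male 1 or 2 or fasted female 1 (log2 change -0.72 to -0.56 over the 8 omissions, adjusted p = 0.116 at the highest). With any 1 library left out 8 to 11 chaperones fell. Of 15 genes of the integrated stress response 3 rose and 3 fell. Sesn2, an inhibitor of mTORC1, rose from 5.08, 5.37, 7.90 and 7.85 to 41.9, 22.9, 25.1 and 19.6 CPM (log2 fold change 2.07, SE 0.30, adjusted p = 6.90e-07), and Trib3, a pseudokinase, by 2.15. Psph, of serine synthesis, fell by 0.59. Ddit3, the factor CHOP, changed by -0.80 and lost its call without fasted male 1 or fasted female 1 (log2 change -1.04 to -0.62 over the 8 omissions, adjusted p = 0.0726 at the highest), and Asns, which the response raises when amino acids are scarce, did not pass (0.50, adjusted p = 0.794, and -0.24 without fasted male 1). Of 14 heat shock and cold-inducible genes 4 passed, all higher. Cirbp, the cold-inducible RNA-binding protein, rose by 0.90. The other 3 depended on single livers, so that 1 passed without control male 2, 3 without control female 1 or fasted female 2 and 2 without any other. Hspd1, a mitochondrial chaperone (0.25), lost its call without control male 2, control female 2, fasted male 2 or fasted female 1 (log2 change 0.13 to 0.35 over the 8 omissions, adjusted p = 0.361 at the highest). Rbm3, cold-inducible like Cirbp (0.42), lost its call without control male 1 or 2, control female 2, fasted male 1 or fasted female 2 (log2 change 0.27 to 0.57 over the 8 omissions, adjusted p = 0.27 at the highest). Hspa8, the constitutive HSC70 (0.55), lost its call without control male 1 or 2, control female 1, fasted male 1 or 2 or fasted female 1 (log2 change 0.38 to 0.70 over the 8 omissions, adjusted p = 0.267 at the highest).

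Genes of autophagy and the lysosome rose in 8 of 17 cases and fell in 0, all 8 without overlap. Bnip3, a receptor for the removal of mitochondria, stood at 80.3, 91.9, 87.4 and 105 CPM in the control livers and 266, 265, 301 and 193 CPM in the fasted livers (log2 fold change 1.49, SE 0.16, adjusted p = 1.26e-09). The membrane markers Map1lc3b and Map1lc3a rose by 0.95 and 0.77 and the initiating kinase Ulk1 by 0.93. Of 38 proteasome subunits 24 rose and 3 fell, but by little (median 0.24). By the effect in each sex 5 rose in the males and 26 in the females, against 1309 and 1652 of all genes. The effect differed between the sexes in 0 of the 38. Psmd9 rose by 1.15, Psmd4 by 0.80 and Psma7 by 0.41, while Psmb10, a subunit of the immunoproteasome, fell by 1.05. With any 1 library left out 19 to 23 subunits rose. Of 88 cytosolic ribosomal proteins 0 rose and 5 fell (median -0.03), but 1 fell without control male 1 or fasted male 2, 2 without control female 1 or fasted female 2, 3 without control female 2 and 7 at the most. Rpl7l1 fell by 0.27. Rps2 (-0.24) did not pass without control male 1, control female 1 or fasted male 2, Rpl35a (-0.23) not without control male 1, fasted male 2 or fasted female 2, and Rps29 (-0.18) only without control male 2. Of 21 genes of ribosome biogenesis 2 rose, Npm1 (0.52) and Ncl (0.40), neither of which passed without fasted female 1, nor Ncl without control female 2, and 1 fell, Nolc1 (-0.44), which passed only without control male 2. Of 64 nuclear genes of oxidative phosphorylation 3 rose and 1 fell (median 0.01), and of these cytochrome c (Cycs, 0.43) passed with any library left out. The others were Uqcrfs1 (0.23), lost without control male 1, control female 2, fasted male 2 or fasted female 2 (log2 change 0.20 to 0.26 over the 8 omissions, adjusted p = 0.0976 at the highest), Ndufs8 (-0.29), lost without control male 1, control female 1 or fasted female 1 (log2 change -0.40 to -0.18 over the 8 omissions, adjusted p = 0.224 at the highest), and Ndufa5 (0.20), lost with each of the 8 libraries. Of 13 mitochondrially encoded genes 2 rose, mt-Nd5 (0.39) and mt-Nd2 (0.28), the latter passing only without fasted female 2.

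Drug-metabolizing cytochromes P450 and their partners rose in 7 and fell in 3 of 17, and 4 rose without control male 1 or control female 2. Por, the reductase that gives electrons to all of them, stood at 117, 142, 199 and 261 CPM in the control livers and 823, 509.7, 1312 and 899 CPM in the fasted livers (log2 fold change 2.31, SE 0.20, adjusted p = 5.61e-12). Cyp2b10, a target of the receptor CAR, read 0.694, 1.35, 23.0 and 13.4 CPM in the control livers and 2.43, 13.2, 159 and 179.5 CPM in the fasted livers (log2 fold change 3.08, SE 0.60, adjusted p = 0.000101, and 2.23 without fasted male 2). Its level was far higher in fasted females than in fasted males. Cyp3a25 rose by 1.24 and Cyp2c38 by 1.00. Of 14 NRF2 targets and glutathione genes 2 rose and 3 fell. Gstm3, a glutathione transferase, fell by 2.25 and Srxn1, sulfiredoxin, rose by 0.91. Gstm1 (-0.54) lost its call without control male 2, control female 1, fasted male 1 or fasted female 1 (log2 change -0.66 to -0.43 over the 8 omissions, adjusted p = 0.116 at the highest), and G6pdx, the first enzyme of the pentose phosphate pathway (-0.92), without control female 1, fasted male 1 or fasted female 1 (log2 change -1.16 to -0.55 over the 8 omissions, adjusted p = 0.221 at the highest). Of 18 acute phase proteins 4 passed as higher, but 1 without fasted male 1. Saa2, serum amyloid A, stood at 6.52, 7.05, 105 and 14.6 CPM in the control livers and 2794, 10.7, 7.42 and 12.2 CPM in the fasted livers (log2 fold change 2.54, SE 0.93, adjusted p = 0.0398), high in fasted male 1 alone. Without that liver the change was -0.98, and without control female 1 it was 3.56. Saa1, its near copy, stood at 32.1, 22.1, 142 and 27.9 CPM in the control livers and 3620.5, 31.1, 12.8 and 26.2 CPM in the fasted livers, high in the same liver. The call of Saa2 was lost without control male 1 or 2, control female 2, fasted male 1 or fasted female 1 or 2 (log2 change -0.98 to 3.56 over the 8 omissions, adjusted p = 0.529 at the highest). Serpina3n (1.66) and Hp (1.15) were also highest in fasted male 1 and did not pass without it (0.77, adjusted p = 0.0705, and 0.79, adjusted p = 0.0771). Il1rn, the interleukin-1 receptor antagonist, rose by 3.0 without overlap. Of 20 cell cycle genes 3 rose and 3 fell. Gadd45b, induced by stress, stood at 0.595, 0.509, 0.702 and 1.89 CPM in the control livers and 4.50, 3.56, 24.7 and 7.09 CPM in the fasted livers (log2 fold change 3.24, SE 0.54, adjusted p = 1.05e-05). Gadd45g rose by 2.79 and did not pass without fasted male 1 (1.62, adjusted p = 0.13), and the cyclin Ccnd1 fell by 1.26.

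The largest rises without overlap, among genes averaging 1 or more on the log2 CPM scale, were led by little-known transcripts. Gm48199, an intergenic non-coding RNA at chr13:52180411-52181637 in the GRCm38 annotation, went from 0.521, 0.763, 0.0923 and 0.667 to 140.0, 8.62, 180.3 and 23.8 CPM (log2 fold change 7.46, SE 1.10, adjusted p = 1.11e-06, 5.90 without fasted male 1, 6.42 without fasted female 1 and 8.46 without control female 2). Gm15441, annotated as antisense at chr3:96555765-96566801, went from 0.198, 0.153, 0.148 and 0.0953 to 44.4, 56.2, 18.8 and 4.21 CPM (log2 fold change 7.33, SE 0.86, adjusted p = 7.11e-09, and 6.61 without fasted female 1), highest in the fasted males. It lies across Txnip, an inhibitor of glucose uptake that rose by 2.17, and since the strand used in counting is not given in the sources used here their reads cannot be told apart. The livers were ordered otherwise for Txnip, at 269.9, 117, 493 and 219 CPM in the fasted livers, highest in female 1. Rgs16, a brake on G protein signalling, read 0.521, 0.458, 2.49 and 1.70 CPM in the control livers and 18.0, 10.1, 105 and 48.3 CPM in the fasted livers (log2 fold change 5.01, SE 1.03, adjusted p = 0.000222). E030018B13Rik, at chr7:63916857-63920539, rose by 6.00 (5.35 without fasted male 1 and 6.72 without control female 1), with Igfbp1, Cidec, Fgf21 and Cyp4a14 also in the list, and with ENSMUSG00000123342 (4.52) and Gm65936 (4.12).

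Among the largest falls without overlap were the sterol genes Mvd, Fdps and Idi1 described above. Aacs, a cytosolic enzyme that returns ketone bodies to lipid synthesis, fell from 124, 163, 139 and 167 to 5.13, 5.52, 20.9 and 11.9 CPM (log2 fold change -3.99, SE 0.47, adjusted p = 1.00e-08). Prok1, a secreted peptide, stood at 15.1, 13.3, 11.8 and 10.7 CPM in the control livers and 1.97, 2.04, 0.0390 and 0.0551 CPM in the fasted livers (log2 fold change -5.31, SE 0.64, adjusted p = 1.54e-08), close to 0 in the fasted females and near 2 CPM in the fasted males. The non-coding or unnamed transcripts Gm32006 (-5.45), Gm56542 (-4.84), Gm3571 (-3.94) and Gm33459 (-3.91) were also among them. Without fasted female 1 the changes of Gm56542 and Gm33459 were -5.68 and -4.63.

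The fasting effect differed between females and males in 45 genes (0.212%), the effect being higher in females for 6 and lower for 39. With 2 mice of each sex in a group, 2157 genes had an unadjusted p under 0.05, and DESeq2 called 173. The 5 genes with the smallest p are shown by library. Zbp1, a sensor of Z-form nucleic acids, stood at 4.39, 4.20, 21.0 and 19.9 CPM in the control livers and 10.7, 5.73, 2.46 and 3.12 CPM in the fasted livers. The control females were above all other livers and the fasted females the lowest, while the fasted males were above the control males (difference -3.81, SE 0.58, adjusted p = 0.000868). Irgm2, an immunity-related GTPase, read 32.6, 34.5, 98.6 and 119 CPM in the control livers and 50.9, 69.4, 34.5 and 38.2 CPM in the fasted livers (difference -2.42, SE 0.38, adjusted p = 0.000868). Ifit1, which binds foreign RNA caps, read 6.60, 5.88, 21.1 and 21.9 CPM in the control livers and 12.8, 11.1, 4.45 and 6.32 CPM in the fasted livers (difference -2.93, SE 0.47, adjusted p = 0.00121). Both followed the order of Zbp1: control females highest, fasted females lowest or level with control males, and fasted males above control males. Trim34a, a ubiquitin ligase, read 4.17, 3.36, 8.61 and 11.4 CPM in the control livers and 5.44, 5.78, 3.85 and 4.11 CPM in the fasted livers (difference -1.91, SE 0.33, adjusted p = 0.00277). Ndrg1, a stress-responsive protein, stood at 14.2, 19.3, 61.9 and 67.1 CPM in the control livers and 19.6, 21.7, 15.5 and 20.6 CPM in the fasted livers (difference -2.14, SE 0.37, adjusted p = 0.00277), the effect being 0.30 in the males and -1.83 in the females. Zbp1, Irgm2, Ifit1 and Trim34a passed with each of the 8 libraries left out in turn, 4 of the 45 genes. Ndrg1 did not pass without control male 1 or without fasted female 1 (adjusted p = 0.0777 in the higher of these fits).

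**Figure D4:**
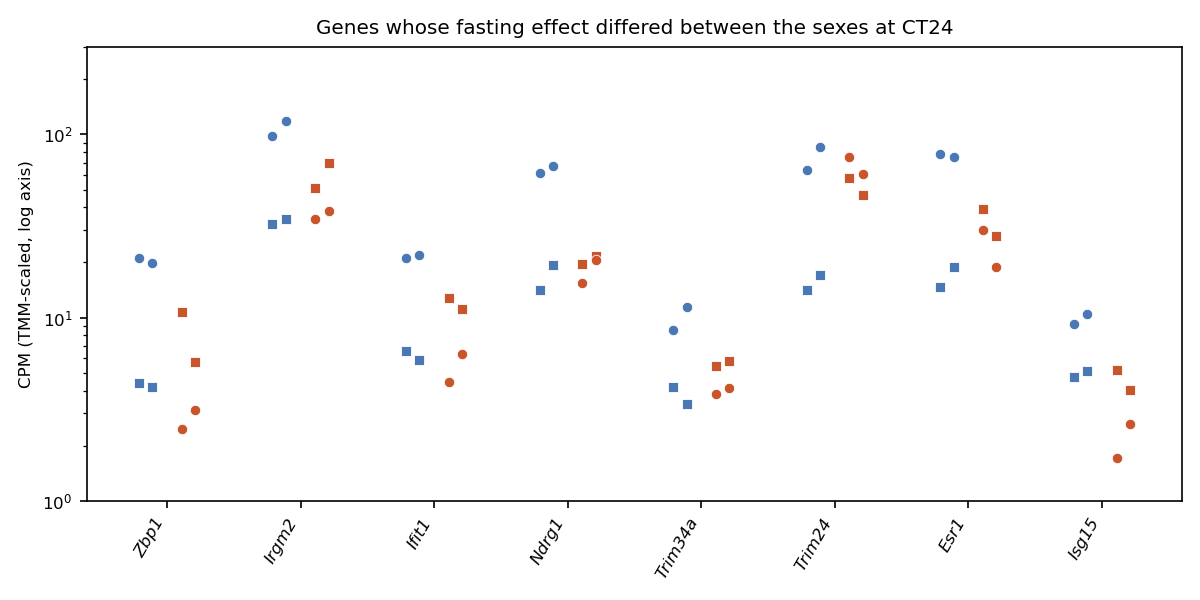
CPM on a log axis of Zbp1, Irgm2, Ifit1, Ndrg1, Trim34a, Trim24, Esr1 and Isg15 in the males and females of the control and fasted groups at CT24, 1 point for each liver (blue control, orange fasted, squares male, circles female). For Zbp1 the control females read 21.0 and 19.9 CPM and the fasted females 2.46 and 3.12, while the males lay between 4.20 and 10.7 CPM in both groups.

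Several more of the 45 encode proteins that interferons induce, among them Isg15, a ubiquitin-like protein, at 4.74, 5.09, 9.22 and 10.5 CPM in the control livers and 5.18, 4.02, 1.72 and 2.63 CPM in the fasted livers (difference -2.08, SE 0.44, adjusted p = 0.0176). These were picked out after their values had been seen, and no list of such genes was tested. The control females stood above the other livers again. Windows of 3 of these genes are shown because they hold GAAA followed after any 2 bases by GAAA on either strand, in capitals, the core bound by interferon regulatory factors. This core stood in 3.46% of all windows and in 8 of the 28 windows found for the 39 genes whose fasting effect was lower in females than in males. The windows shown are those of Irgm2 (chr11:58214727-58214976, plus strand), Ifit1 (chr19:34640639-34640888, plus strand) and Isg15 (chr4:156200819-156201068, minus strand).
Irgm2: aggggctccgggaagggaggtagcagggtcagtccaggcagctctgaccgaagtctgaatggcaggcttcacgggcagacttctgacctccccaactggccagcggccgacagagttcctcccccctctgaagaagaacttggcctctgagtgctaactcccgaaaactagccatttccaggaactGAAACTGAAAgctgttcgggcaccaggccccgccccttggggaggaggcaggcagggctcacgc
Ifit1: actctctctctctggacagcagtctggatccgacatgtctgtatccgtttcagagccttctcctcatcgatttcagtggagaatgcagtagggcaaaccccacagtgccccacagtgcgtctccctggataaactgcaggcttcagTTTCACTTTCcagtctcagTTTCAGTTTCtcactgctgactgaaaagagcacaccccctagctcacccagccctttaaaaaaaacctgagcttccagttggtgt
Isg15: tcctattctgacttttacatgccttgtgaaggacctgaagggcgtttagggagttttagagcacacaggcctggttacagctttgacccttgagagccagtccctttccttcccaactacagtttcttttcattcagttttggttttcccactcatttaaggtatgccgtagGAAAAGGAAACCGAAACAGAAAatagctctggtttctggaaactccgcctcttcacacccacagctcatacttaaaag
The core appears 1 time in Irgm2, 2 times in Ifit1 and 3 times, overlapping, in Isg15.

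Of genes that differ between the sexes in normal liver, the fasting effect differed by sex in 1 of 11 female-biased and 0 of 9 male-biased genes. Trim24, a female-biased co-regulator, stood at 14.1, 17.0, 63.6 and 85.3 CPM in the control livers and 57.8, 46.9, 75.2 and 60.5 CPM in the fasted livers. It rose in the males (1.75) and read -0.13 in the females (difference -1.88, SE 0.34, adjusted p = 0.00511), and it was the only 1 of 11 female-biased genes that passed for fasting as a whole. The oestrogen receptor Esr1 stood at 14.6, 18.9, 78.1 and 75.5 CPM in the control livers and 39.3, 27.8, 30.2 and 18.8 CPM in the fasted livers (difference -2.65, SE 0.53, adjusted p = 0.0127), with the control females far above the other livers. For fasting as a whole 0 of the 9 male-biased genes rose and 4 fell. Selenbp2 stood at 1790.5, 1148, 28.6 and 126 CPM in the control livers and 462, 499.5, 3.44 and 2.96 CPM in the fasted livers (log2 fold change -3.10, SE 0.45, adjusted p = 6.26e-07, and -2.38 without control female 2), and Hsd3b5, a steroid dehydrogenase, at 365, 278, 8.86 and 16.1 CPM in the control livers and 13, 39.3, 0.429 and 0.0918 CPM in the fasted livers (log2 fold change -4.60, SE 0.67, adjusted p = 7.82e-07, and -5.32 without fasted female 1). The fasted livers were lower than the controls of their own sex for both genes, and males exceeded females in both groups. Cyp2u1 fell by 1.84.

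The 45 differences were looked up at the neighbouring times, which share no library with CT24. The genes were chosen by their difference at CT24, which favours a large median there, so the medians do not compare the times evenly. At CT20, after 10 h without food, the difference between the sexes had the same sign in 32 of 45 genes (71.1%), with a median of -0.13 against -1.77 at CT24, and 0 of the 45 passed. By edgeR, 0 genes in all passed the test of the sex difference at CT20, with 1449 at an unadjusted p under 0.05. At CT28, after 18 h, 38 of 45 (84.4%) had the same sign with a median of -0.60, and 3 passed, of 12 genes in all (0.0566%). These were Ifit1 (-2.30, adjusted p = 0.0365), Ndrg1 (-1.97, adjusted p = 0.0213) and Rsad2, an antiviral enzyme (-1.95, adjusted p = 0.0222). Zbp1 read -0.31 at CT20 and -2.53 at CT28, and Irgm2 -0.13 and -0.70. At CT20 both genes were lower in fasted livers of both sexes pooled (-2.26 and -1.30).

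The effects at 14 h were set beside those at 10 and 18 h. Of the 5099 genes called at CT24, 95.6% had the same sign at CT20 and 93.1% at CT28. At CT20 7757 genes passed (36.6%), of which 3850 had also passed at CT24 with the same sign, 75.5% of the CT24 genes and 49.6% of the CT20 genes, and 15 passed with opposite signs. At CT28 4448 passed (21.0%), of which 2808 were shared, 55.1% and 63.1% of the lists, and 9 had opposite signs. In cholesterol synthesis and fatty acid oxidation the medians kept their sign: that of mitochondrial fatty acid oxidation was 1.15, 0.89 and 0.78 at CT20, CT24 and CT28, and that of cholesterol genes -2.61, -2.37 and -2.52. Other lists had medians of both signs over the 3 times, among them insulin signalling and FOXO targets at 0.53, 0.44 and -0.31, clock genes at 0.16, 0.22 and -0.05, the integrated stress response at -0.39, 0.13 and 0.05, cytochromes P450 at -0.18, 0.28 and 0.13 and acute phase proteins at -0.24, 0.16 and -0.16.

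A test of the difference itself found 80 genes (0.378%) whose fasting effect at CT24 was not that at CT28, higher at CT24 in 54 and lower in 26, with 1897 at an unadjusted p under 0.05. Nr1d2 had mean control levels of 14, 9.04 and 65.7 CPM at CT20, CT24 and CT28 and fasted levels of 33.5, 28.3 and 50.9, so that an effect of 1.64 at CT24 was -0.31 at CT28 (difference 1.95, SE 0.22, adjusted p = 4.16e-07). Lpin2, a phosphatidate phosphatase of triglyceride synthesis, went through 214, 93.1 and 239.9 CPM in controls and 989, 662 and 324 in fasted livers (difference 2.41, SE 0.30, adjusted p = 1.64e-06). Both groups moved, the controls up from CT24 to CT28 and the fasted livers down. Ppard, the receptor PPARδ, read 67.7, 74.9 and 22.4 CPM in controls and 15.1, 13 and 10.6 in fasted livers (difference -1.72, SE 0.24, adjusted p = 3.76e-05). The fed level of Ppard dropped after CT24, and the fasted level was low at all 3 times. Klhl24, which adapts substrates to a ubiquitin ligase, went from an effect of 1.23 at CT24 to -0.14 at CT28 (difference 1.38, SE 0.17, adjusted p = 1.50e-06), and Tcp11l2 from 1.5 to -0.23 (difference 1.73, SE 0.24, adjusted p = 2.12e-05). All 5 passed with each library of CT24 left out in turn, among 16 of the 80.

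**Figure D5:**
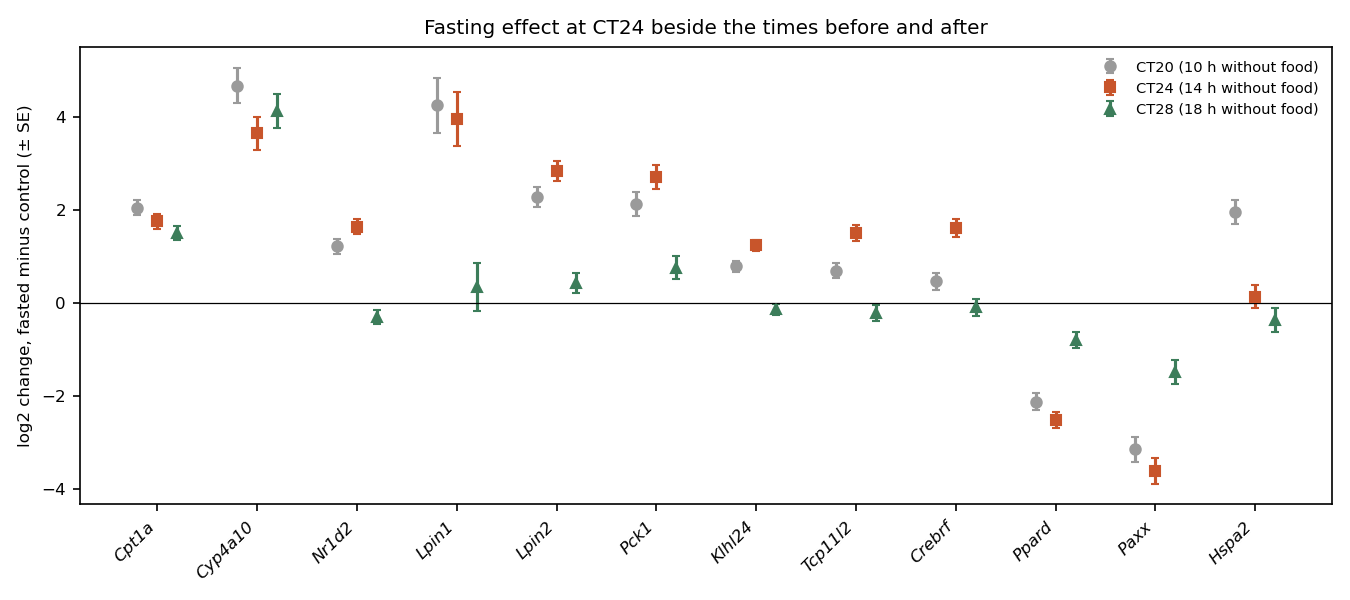
Log2 fold change, fasted against control, of 12 genes at CT20, CT24 and CT28, with bars of 1 SE from the fit to all libraries and 4 livers for each group. Nr1d2, Lpin1, Lpin2, Klhl24, Tcp11l2 and Crebrf stood between 1.23 and 3.95 at CT24 and between -0.31 and 0.42 at CT28, and Pck1 went from 2.70 to 0.75, while Cpt1a and Cyp4a10 were raised at all 3 times.

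Pck1 was among the 80. Its mean level was 1040, 753 and 1932 CPM in controls and 4268, 4878 and 3338 in fasted livers at CT20, CT24 and CT28, an effect of 2.12, 2.70 and 0.75 (difference 1.95, SE 0.35, adjusted p = 0.0024 for CT24 minus CT28). Pck1 was chosen after its value was seen, and it passed with each library left out. Lpin1 had a larger difference (difference 3.62, SE 0.75, adjusted p = 0.012) but did not pass without control female 2 or fasted female 1. Against CT20, the effect at CT24 differed in 149 genes (0.703%), higher in 76 and lower in 73 (94 and 45 with upper-quartile scaling), with 3077 at an unadjusted p under 0.05. None of these 149 passed with each library of CT24 left out in turn, where 0 genes in all passed by edgeR without fasted female 2 (2444 at an unadjusted p under 0.05) and 1 without control female 2. Cramp1 (-0.64), Cdc42ep1 (-0.90), Golga4 (-0.50), Tpm1 (0.62) and the heat shock gene Hspa2 (-1.82) had the smallest p. Hspa2 read 6.74, 2.46 and 1.39 CPM in fasted livers at the 3 times and 1.65, 2.16 and 1.76 in controls. Against the mean of the other 8 times after food removal, 11 genes (0.0519%) differed, 7 higher and 4 lower, with 1627 at an unadjusted p under 0.05. Ppard (difference -1.56, SE 0.18, adjusted p = 1.28e-06) and Lpin2 (difference 1.44, SE 0.22, adjusted p = 0.000632) were the ones that passed with each library left out, and Nr1d2 (0.90), Crebrf (1.03) and Plekhg3 (0.61) followed.

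Beside the level, the use of exons was tested from the counts on 191333 exon bins of 11974 genes. A bin is a piece of an exon that is either wholly in or wholly out of a transcript, and the table names bins by number without coordinates. In 164 genes (1.37%) at least 1 bin changed its share, with 541 at an unadjusted p under 0.05. With the p-values adjusted over all bins instead of over genes, 328 bins passed. Such a bin went up in 120 genes and down in 94, which is not a split of the 164. Of 11326 genes tested in both ways 3767 were called for level, and 91 were called for use and level. The exon test pools the spread over the bins of a gene. An adjusted p given for a bin thus does not measure the spread of that bin between livers. Hnrnpk, a nuclear RNA-binding protein, led the list (adjusted p = 1.38e-20 for bin 19). Bin 19 held 0.226, 0.263, 0.140 and 0.125% of the counts of the gene in the controls and 0.976, 0.997, 0.166 and 1.04% in the fasted livers. Fasted female 1 stayed at the level of the controls and the other 3 were several times higher. Bin 23 showed the same split, 0.158, 0.333, 0.133 and 0.163% against 1.09, 0.978, 0.114 and 1.09%, and the level of the gene did not pass (0.10, adjusted p = 0.305).

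Chd9, a chromatin remodeller, went from 0.439, 0.385, 0.919 and 0.286% to 7.90, 0.525, 5.24 and 2.00% in bin 14 (adjusted p = 3.54e-18), on 13, 13, 41 and 12 and 167, 14, 152 and 61 reads, with fasted male 2 near the controls. Mat1a used bin 1 less, 0.832, 0.766, 0.462 and 0.586% against 0.155, 0.338, 0.170 and 0.151% (adjusted p = 7.01e-16). The reads on this bin were 963, 1127, 1189 and 1440 in controls and 1279, 1571, 1288 and 1160 in fasted livers, so they overlapped while the rest of the gene rose. In Ahcy bin 11 rose from 0.0613, 0.0626, 0.0661 and 0.0880% to 0.338, 0.0988, 0.229 and 0.198% (adjusted p = 6.66e-11), and in Phyh, the peroxisomal enzyme of phytanic acid breakdown, bin 10 from 0.0556, 0.115, 0.113 and 0.0763% to 0.294, 0.219, 0.292 and 0.227% (adjusted p = 6.62e-13). These bins hold small shares of the counts of their genes.

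Markers of the cell types of liver were checked as whole lists. Of 9 hepatocyte markers 2 passed as higher, Apoa1 by 0.81 and Cps1, and 1, Ttr, as lower (-0.41). The calls of Cps1 and Ttr were lost without any control, fasted male 1 or fasted female 1, and their summed level was 74000 to 104700 CPM in the control livers and 90020 to 119600 CPM in the fasted livers. Of 10 Kupffer cell markers 1 fell, Folr2 (-0.57), a call lost without the same libraries, with sums of 294 to 536 CPM in the control livers and 283 to 536 CPM in the fasted livers. Of 9 endothelial markers 1 rose, Lyve1 from 7.12, 3.89, 7.13 and 8.06 to 18.8, 12.7, 35.2 and 24.6 CPM (log2 fold change 1.75, SE 0.42, adjusted p = 0.00142), and 1 fell, Kdr (-0.22, lost without control male 2, control female 2 or fasted female 1), with sums of 551 to 675 CPM in the control livers and 527 to 727 CPM in the fasted livers. Stellate cell and fibroblast markers fell in 3 of 10: Col3a1, a fibrillar collagen (-1.51), Reln (-0.50) and Lrat, which stores vitamin A (-0.67), with sums of 399.7 to 549 CPM in the control livers and 332 to 547 CPM in the fasted livers. Bile duct markers fell in 2 of 6, Krt19 (-0.91, lost without control male 1, fasted male 1 or fasted female 2) and Spp1 (-0.71, lost without control male 1, fasted male 2 or fasted female 1), and the sum of all 6 was 37.8 to 47.0 CPM in the control livers and 20.4 to 34.2 CPM in the fasted livers, without overlap. None of 10 lymphocyte and neutrophil markers (10.7 to 29.1 CPM in the control livers and 14.3 to 23.8 CPM in the fasted livers) or 5 red cell genes passed. Of the pancreas and fat cell markers Pnlip and Prss2 were at 0 in all 8 livers, and Cela1, which liver also expresses, fell by 1.91. Of 28 histone genes 0 rose and 5 fell, among them H2bc21 (-0.98) and H4c9 (-1.42), and 2 fell without control female 2. These transcripts mostly lack a poly(A) tail, so their level also reports how RNA was selected, and it was not tested whether that took part here.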

How the data were processed

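Liver RNA of 8 mice at CT24 was polyadenylation-selected and sequenced in pairs with a stranded kit. The authors deposited raw counts for 78275 genes in 80 libraries and raw counts for 470140 exon bins. Their processing notes name Trimmomatic, HISAT2, DESeq2 and the genome build GRCm39, while versions, the counting program and the strand setting are not given in the sources used here. The deposited normalised counts were not used, nor were 72 exon columns of other times. Libraries were grouped by their titles and by column names.

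Genes were filtered with filterByExpr, scaled by TMM and fitted with edgeR 4.0.16 (R 4.3.3) as 40 means of treatment, time and sex over all 80 libraries. The quasi-likelihood test was adjusted by the Benjamini–Hochberg method, with calls at an adjusted p under 0.05. The 8 libraries held 38066554 to 53478705 counts, so genes under 1 CPM rest on few reads, and no molecular identifiers are stated. Exon use was tested on the 8 libraries with diffSpliceDGE and Simes p-values per gene, and 5 rows that name no bin, 9.52 to 14% of the exon counts, were left out. The main gene fit and the exon fit were also run on simulated counts with known changes, and the other fits were not. The simulated exon counts had 1 fixed spread. Before the known changes were put in, the means of neither set differed between the sexes, and those of the gene counts did not differ between times. Alternatives changed scaling, filter, test (limma 3.58.1, DESeq2 1.42.0), threshold and libraries.

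The members and the 43 gene lists were chosen with earlier results of these data known. The genes named were a fixed core, up to 4 members of each list with the smallest p, the 10 largest rises and falls without overlap with an average log2 CPM of 1 or more, and 5 genes for each difference and for exon use, some of which are not reported here. Others (Ppara, Lpin1, Elovl5, Hmgcs1, Hsd17b7, Zbtb16, Errfi1, Saa1, Txnip, Isg15, Esr1 and Rsad2, and Acads, Hadh, Echs1, Acaa2 and Etfa) were named after their values were seen. Promoter windows came from RefSeq on GRCm38.p6 and gene positions from GENCODE on GRCm38, matched by symbol and gene identifier, and none was converted between builds.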

Additional observations from a re-analysis of the deposited data

Results flagged for a closer look

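Single livers far from the other 3 of their group were found in 17 of 218 groups tested with Dixon's ratio. The nominal rate of this test is about 1 in 20, for independent groups of normally distributed values. The groups tested here shared the same livers, and some genes, such as Saa1 and Zbtb16, were named after their values were seen. That rate is thus not the chance rate for this count, and whether 17 exceeds chance was not tested. In the controls male 1 had 0.66% of its counts on Rn18s-rs5, female 1 was highest for Acly (613 CPM), Scd1 (15140 CPM), Saa1 (142 CPM) and Saa2 (105 CPM), female 2 was highest for Mid1ip1 (79.7 CPM) and Gadd45b (1.89 CPM), and male 2 was lowest for Ppard (57.4 CPM). In the fasted livers female 1 was highest for Fgf21 (33.1 CPM), Pdk4 (292 CPM), Gadd45b (24.7 CPM), Ppp1r3g (96.1 CPM) and Slc16a6 (16.1 CPM). Fasted male 1 was highest for Saa1 (3620 CPM), Saa2 (2794 CPM) and E030018B13Rik (50.02 CPM), and fasted male 2 was lowest for Zbtb16 (11.0 CPM).

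Effects of fasting that differed between the sexes were found in 45 genes. As log2 change in females minus that in males, the leading ones were Zbp1 at -3.81, Irgm2 at -2.42, Ifit1 at -2.93, Ndrg1 at -2.14 and Trim34a at -1.91, each lower in both fasted females than in both control females.

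Effects that differed between times were found in 149 genes against CT20, 80 against CT28 and 11 against the mean of the other times. Against CT20 they were Cramp1 at -0.64, Cdc42ep1 at -0.90, Golga4 at -0.50, Tpm1 at 0.62 and Hspa2 at -1.82. Against CT28 they were Nr1d2 at 1.95, Klhl24 at 1.38, Lpin2 at 2.41, Tcp11l2 at 1.73 and Ppard at -1.72. Against the mean of the other times they were Ppard at -1.56, Lpin2 at 1.44, Nr1d2 at 0.90, Plekhg3 at 0.61 and Crebrf at 1.03. All are differences of log2 changes by edgeR's interaction test.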

How the results depend on the processing

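Of the 183 named genes called at CT24, 130 kept their call under every alternative other than a stricter threshold or a single sex, and 140 with each library left out. The count of genes changed at CT24 lay between 4613 and 5381 under other scalings, filters, limma, DESeq2, the replicate block and without control CT8 female 2, at 3925 with the 8 libraries alone, and at 3577 to 4703 with 1 of the 8 left out. It was 3202 at an adjusted p under 0.01 and 2900 for changes of at least 1.5 times. The effect in the males, taken from the main fit, passed in 2316 genes. The differences were less stable. Without a filter 675 genes passed for sex, 1120 against CT20, 602 against CT28 and 530 against the other times, and with 10 counts in every library 243 passed against CT20 and 23 against the other times. DESeq2 called 173, 471, 214 and 91. At an adjusted p under 0.01 the counts were 11, 1, 24 and 2. With 1 library left out they were 5 to 43 for sex, 0 to 233 against CT20, 18 to 104 against CT28 and 2 to 19 against the other times. Upper-quartile scaling gave 94 higher and 45 lower against CT20 in place of 76 and 73, and limma 53 and 87. Exon use changed in 268 genes by the gene-level F test and in 110 to 177 with 1 library left out. The causes were not tested.

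Deviations of fasted and control livers of 1 replicate number correlated across genes at 0.0303 in males and -0.0179 in females. Each value rests on 1 pair of differences, so it cannot show whether the numbers pair the mice. With the numbers as a replicate block 4613 genes passed at CT24 (3156 with the 8 libraries alone) and 23 against CT20.

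Among named genes called before or after the change, signs were reversed in males alone for Igf1 (0.017), Hspa8 (-0.16), Zbp1 (0.94), Irgm2 (0.84) and Ndrg1 (0.30), in females alone for Saa2 (-2.61), Nolc1 (0.25) and Trim24 (-0.13), and for Saa2 without fasted male 1 (-0.98), whose change over the omissions ran up to 3.56. Uncalled changes turned sign too, as for Ifit1 (0.94) and Trim34a (0.58) in males alone and Asns (-0.24) without fasted male 1. Changes of genes below 1 CPM rest on few reads.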
